A study of Mus musculus with 14 samples.

Results

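Collagen genes were examined in mouse satellite cells, the stem cells that lie between each muscle fibre and the basement membrane around it. The members are all non-control probes of the array whose gene name is a collagen chain name (Col, a number, the letter a, a number). That gave 63 of the array's 55681 probes, for 42 genes. The filter on dim probes asked for a signal well above background on 2 or more arrays within any group. By that filter 54 collagen probes and 38 collagen genes remained among 49927 probes and 32871 genes, and 33 of the 42 collagen genes were above background on all 14 arrays. By class, 9 of 11 fibrillar genes, 8 of 8 basement membrane genes and 21 of 23 genes of other types were kept. Col2a1, Col11a1, Col6a5 and Col22a1 were not kept, and Col6a3 and Col21a1, which no probe names, were not analysed here.

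The series asks how gene expression in resting satellite cells differs with normal ageing and in a progeroid strain. Cells of skeletal muscle that carried integrin alpha 7 and CD34 were sorted after those with Sca1, CD11b, CD45 or CD31 had been gated out, and amplified cDNA of each sample was labelled with Cy3 and hybridised to 1 single-colour Agilent array. The groups were C57BL/6 mice called Young (3 arrays; 2, 2 and 3 months), Old (3 arrays; 22, 23 and 24 months) and Geriatric (2 arrays; 30 and 29 months), and 12-month SAMP8 and SAMR1 mice (3 arrays each), a senescence-prone strain and its senescence-resistant counterpart. Geriatric replicate 2 was not analysed here. No mouse carries a transgene or treatment by the labels, which give every mouse as male and call the samples biological replicates, with no word on pooling.

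Collagens are trimers whose chains repeat a triplet that begins with glycine, which lets them wind into a triple helix. Fibrillar types form the tensile fibres of connective tissue, type IV forms the sheet of the basement membrane, and the other types tie fibrils, membranes and cells together. In muscle, satellite cells touch collagen IV of the basement membrane and collagen VI around the fibre, and in mice they make collagen V, which acts on the calcitonin receptor to keep them quiescent. The repeat can be read in probes that lie in a coding stretch. These 2 array probes are shown because, among the collagen probes, only they carry it over their whole length. Capitals mark the glycine codons (GGN), each followed by a pair of other codons:

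Col15a1 probe: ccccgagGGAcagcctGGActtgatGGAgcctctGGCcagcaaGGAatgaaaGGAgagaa

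Col25a1 probe: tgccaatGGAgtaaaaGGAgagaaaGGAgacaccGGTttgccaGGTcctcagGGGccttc

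The Col15a1 probe lies at chr4:47283786-47283845 and the Col25a1 probe at chr3:130270497-130270556, both on the plus strand of build mm9 by the array's own coordinates, and each holds 6 such codons. Of the 63 collagen probes 2 (3.17%) had this pattern, against 5 of 55618 other probes (0.00899%).

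Values below are levels, meaning log2 of the processed signal of 1 probe minus the 75th percentile of its array. A level of 0 is therefore that percentile, and levels of different genes are not set against each other. Changes are differences of mean levels with the standard error (SE) of limma, n = 3 arrays a group and n = 2 for Geriatric. A gene is called at an adjusted p under 0.05 (two-sided, Benjamini-Hochberg over all 32871 genes). The array number limits the precision.

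On single arrays, 77.1% to 88.8% of probes exceeded background clearly. All 11 satellite cell markers were above background on all arrays of every group, with a mean level between 2.21 and 2.97. Outlier spots numbered 94 to 255 an array, except 969 on Geriatric 1. The arrays lay on 2 slides by the header barcodes, with 6 arrays (Young 1 and 3, Old 2, SAMP8 2, SAMR1 1 and 3) on slide 1, and the other 8, both Geriatric arrays among them, on slide 2. Slide 2 holds 1 Young array, and fits without a Geriatric array keep 1 of them, so in those fits the lone array is assumed to vary like the other groups. Against the label of male, the Y-linked Ddx3y, Uty and Kdm5d were above background on both Geriatric arrays and all SAMP8 and SAMR1 arrays, and on no Young or Old array. Xist, the RNA of the inactive X, was above background on 0 Geriatric, 3 Young, 3 Old, 3 SAMP8 and 1 SAMR1 arrays. A change between Geriatric and Young or Old arrays therefore cannot be told apart from a difference in the sex of the mice, while Old versus Young does not cross that division. SAMP8 and SAMR1 arrays share the Y-linked transcripts but differ in how many show Xist, and the part of this in their comparison was not tested. The 3 C57BL/6 comparisons share arrays, and their values stand side by side below.

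The 38 kept collagen genes did not share a direction with age, and few chains passed the test. In Old versus Young 1 gene rose (Col4a5) and 0 fell, where 1.2% of all genes rose and 0.24% fell. In Geriatric versus Young 5 genes rose (Col4a5, Col4a6, Col18a1, Col6a6 and Col19a1) and 0 fell, beside 1.58% and 2.61% of all genes. In Geriatric versus Old 5 rose (Col18a1, Col6a6, Col12a1, Col19a1 and Col10a1) and 4 fell (Col4a3, Col6a4, Col25a1 and Col28a1), beside 5.52% and 14.4%. Out of 38 genes, the counts of rises in both Geriatric comparisons lie above those shares, and the count of falls in Geriatric versus Old lies near its own. No test was made of the list.

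Between SAMP8 and SAMR1 0 collagens passed, and 0.222% of all genes rose and 0.228% fell. Median changes over the 38 genes were -0.03 in Old versus Young, 0.04 and 0.19 in Geriatric versus Young and versus Old, and 0.04 in SAMP8 versus SAMR1. Over all genes they were 0.06, -0.18, -0.22 and 0.01 in the same order. The medians over all genes depend on the scaling. With quantile normalization they were -0.04 in Geriatric versus Young and 0.03 in Geriatric versus Old. The Geriatric versus Old calls split into 7 rises and 2 falls with that scaling and 7 and 2 in the authors' deposited values.

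**Figure D1:**
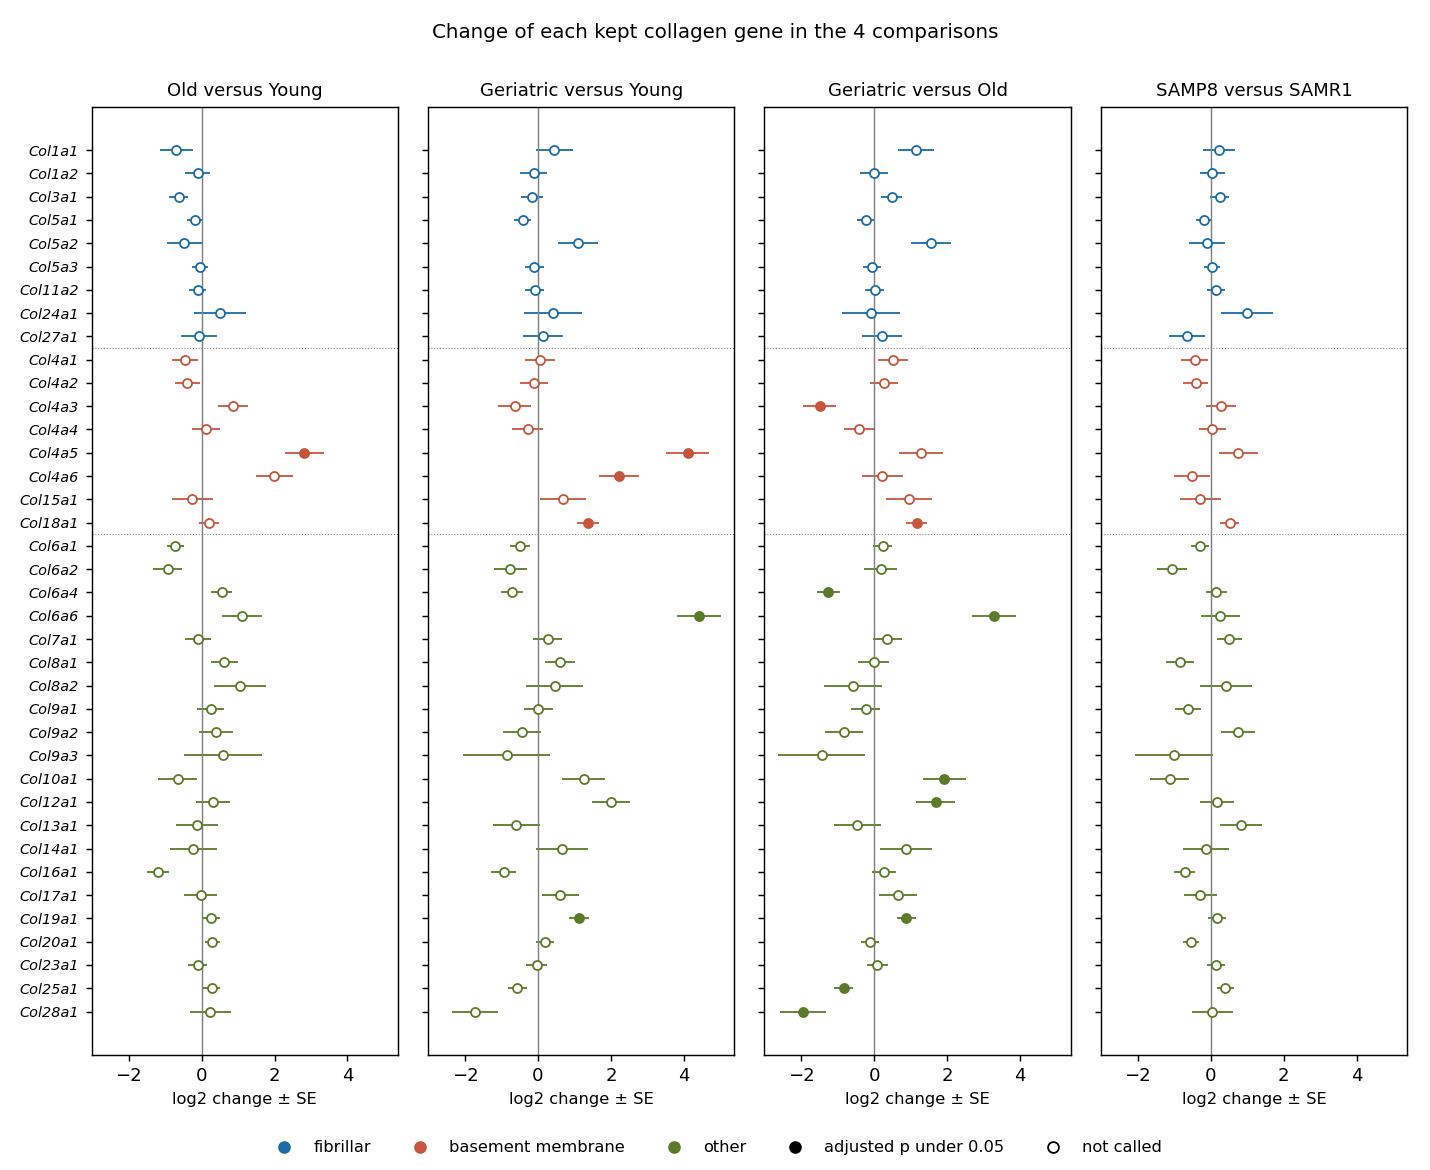
Log2 change ± SE (horizontal axis) of each of the 38 kept collagen genes (rows) in the 4 comparisons (panels), coloured by class, with filled points for an adjusted p under 0.05. The 9 fibrillar genes hold no filled point, and Col6a6 and Col4a5 reach 4.40 and 4.10 in Geriatric versus Young.

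None of the 9 fibrillar genes passed in any comparison, and their lowest adjusted p was 0.065 (Col5a2, Geriatric versus Old). In that comparison Col5a2 passed in 6 of 27 alternatives, Col3a1 with the authors' deposited values and without Old 3, and Col1a1 without Old 3 (lowest limma adjusted p = 0.0266, 0.042 and 0.0403). In Old versus Young 8 of the 9 had negative changes, with a median of -0.11 and a range from -0.69 to 0.49. Only 1 of them had an unadjusted limma p under 0.05. Of all genes 55.4% had positive changes there, with a median of 0.06. The medians of the 9 fibrillar genes were -0.09, 0.02 and 0.04 in Geriatric versus Young, Geriatric versus Old and SAMP8 versus SAMR1.

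Col1a1 and Col1a2 encode the 2 chains of type I collagen, the main collagen of tendon, skin and bone. Col1a1 lay at -1.54, -1.95 and -0.50 on Old arrays and at -0.80 and 0.43 on Geriatric arrays, against -0.52, -0.90 and -0.50 on Young arrays. Col1a2 lay at 1.83, 2.17 and 2.58 in Old and at 1.57 and 2.80 in Geriatric, against 2.46, 2.28 and 2.17 in Young. Old 1 and Old 2 were below all Young arrays for Col1a1, but Old 3 was level with them, and the groups overlapped for both genes. The Col1a1 change was -0.69 ± 0.446 in Old versus Young and 1.14 ± 0.498 in Geriatric versus Old (limma adjusted p = 0.474 and 0.124). The Col1a2 change was -0.11 ± 0.342 in Old versus Young and -0.12 ± 0.383 in Geriatric versus Young (limma adjusted p = 0.92 and 0.875).

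Type I chains mostly lay higher on SAMP8 and SAMR1 arrays than on C57BL/6 arrays, a difference for which no comparison was set up, so only values are given. Col1a2 lay at 3.27, 3.98 and 3.52 in SAMP8 and at 3.34, 3.26 and 4.04 in SAMR1, all above its highest C57BL/6 value of 2.80. Col1a1 lay at 0.15, 0.95 and 1.05 in SAMP8 and at 0.31, 0.06 and 1.12 in SAMR1. Only Geriatric 3, at 0.43, reached that range among the C57BL/6 arrays.

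Col8a1, a chain of the sheet-forming type VIII collagen, behaved the same way, at -1.64, -1.66 and -1.10 in SAMP8 and -1.08, -1.03 and 0.24 in SAMR1, with a highest C57BL/6 value of -2.33. The mean level of 13 of 14 listed fibroblast markers also lay higher on SAMP8 and SAMR1 arrays than on C57BL/6 arrays. It ranged from 0.85 to 1.12 on SAMP8 arrays and from 0.58 to 0.79 on SAMR1 arrays, against -0.11 to 0.13 in Young, -0.08 to 0.23 in Old and -0.07 to 0.34 in Geriatric. Not every member did so by group means. Dcn, Fbln1, Lum, Ly6a, Mfap5 and Smoc2 lay higher in both strains than in every C57BL/6 group, Fbln1 only narrowly in SAMR1. Cd248, Dpt, Fbn1, Mfap4, Pi16, Thy1 and Tnxb did not. Thy1 had means of 1.74 in SAMP8 and 1.87 in SAMR1, against 3.53 in Young, 2.75 in Old and 0.49 in Geriatric. Pdgfra, which defines fibro-adipogenic progenitors, was not well above background and not kept.

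The mean of 10 endothelial markers ranged from -0.39 to 2.29 in SAMP8 and 1.32 to 2.50 in SAMR1, against -2.29 to -0.48 on C57BL/6 arrays. The part of other cells in these collagen levels was not tested. In such bulk samples fewer cells of a type and less RNA per cell cannot be told apart.

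**Figure D2:**
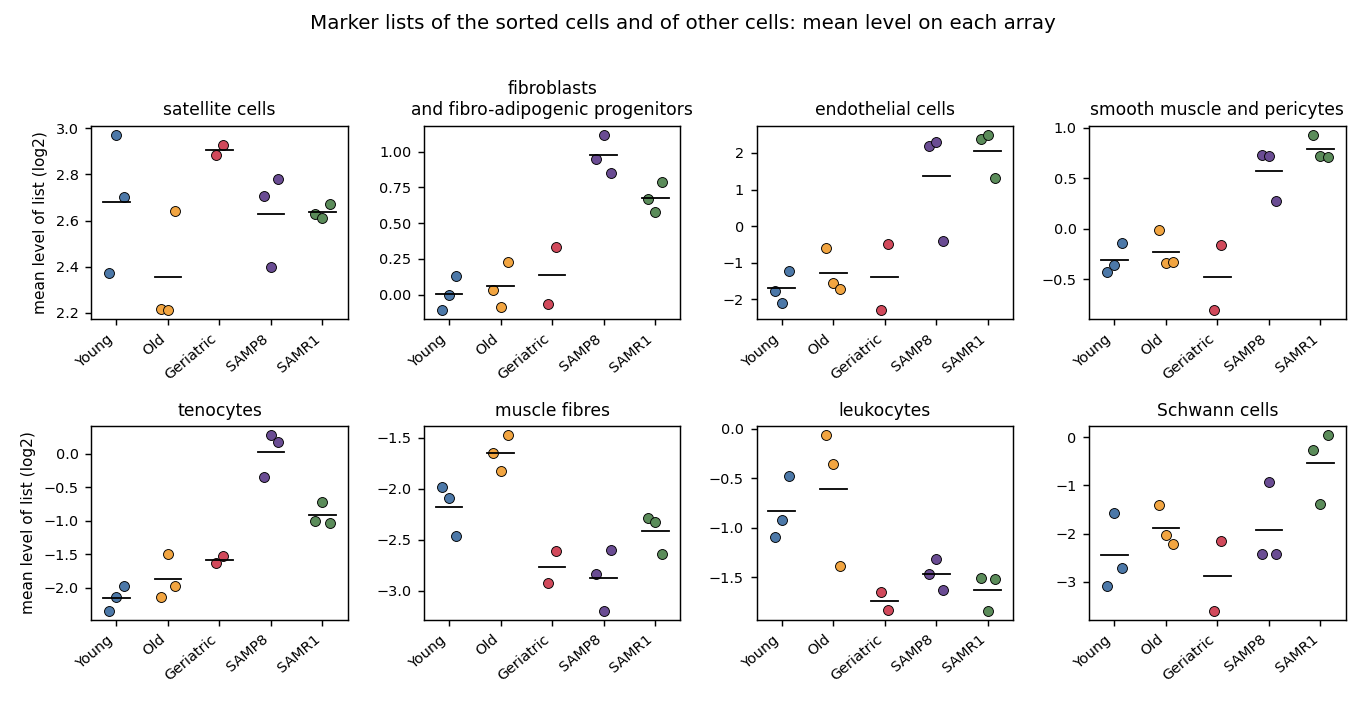
Mean level (log2 over the array's 75th percentile, vertical axis) of 8 marker lists on each array, with arrays as points and the group mean as a bar. The fibroblast, endothelial, pericyte and tenocyte lists lie higher on SAMP8 and SAMR1 arrays than on Young, Old and Geriatric arrays, apart from 1 SAMP8 array at -0.39 for endothelial markers, near the highest C57BL/6 value of -0.48.

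Col3a1, the chain of type III collagen of elastic tissues, lay at 4.50, 4.18 and 5.26 in Old and at 4.87 and 5.37 in Geriatric, against 5.15, 5.35 and 5.32 in Young. Old 1 and Old 2 were the lowest of all 14 arrays, while Old 3 fell among the Young arrays. Its change was -0.63 ± 0.264 in Old versus Young (limma adjusted p = 0.254). In SAMP8 it lay at 5.39, 4.97 and 5.29, against 4.97, 4.89 and 5.05 in SAMR1.

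The type V chains, which in muscle include the niche collagen made by satellite cells, showed no called change. Col5a1 lay at 4.18, 4.05 and 4.57 in Old and at 3.91 and 4.15 in Geriatric, against 4.24, 4.80 and 4.30 in Young. Both Geriatric arrays were below all Young arrays, with a change of -0.42 ± 0.234 (95% interval -0.93 to 0.10, limma adjusted p = 0.315). Col5a3 lay at 3.43, 3.07 and 3.89 in Old and at 3.39 and 3.42 in Geriatric, against 3.31, 3.53 and 3.65 in Young. Its Geriatric versus Young change was -0.10 ± 0.25, and the groups overlapped.

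Col5a2, the chain that joins Col5a1 in the common form of collagen V, lay at -2.56, -2.88 and -1.73 in Old and at -1.31 and -0.34 in Geriatric, against -1.98, -1.52 and -2.26 in Young. Both Geriatric arrays were above every Old and Young array, by 1.56 ± 0.547 over Old and 1.10 ± 0.547 over Young, and neither change passed (limma adjusted p = 0.065 and 0.265). The change over Old did pass with quantile normalization, normexp background correction, the authors' deposited values or slide as a fixed block, and without Old 3 or SAMP8 2 (limma adjusted p from 0.0266 to 0.361 over its alternatives). Col5a1 lay at 3.75, 3.48 and 3.75 in SAMP8, against 3.74, 3.94 and 3.86 in SAMR1. Col5a3 lay at 3.29, 2.86 and 3.24 in SAMP8, against 2.99, 3.23 and 3.08 in SAMR1. Calcr, the receptor that collagen V engages, changed by -0.23 ± 0.325 in Old versus Young and 0.62 ± 0.363 in Geriatric versus Young (limma adjusted p = 0.793 and 0.336).

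The other fibrillar chains were Col11a2, Col24a1 and Col27a1. Col11a2 ranged from -1.74 to -0.94 over the 14 arrays, and no change of it was above 0.14 in size. Col24a1 was above background on 4 of 14 arrays and passed the filter through the Geriatric group.

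**Figure D3:**
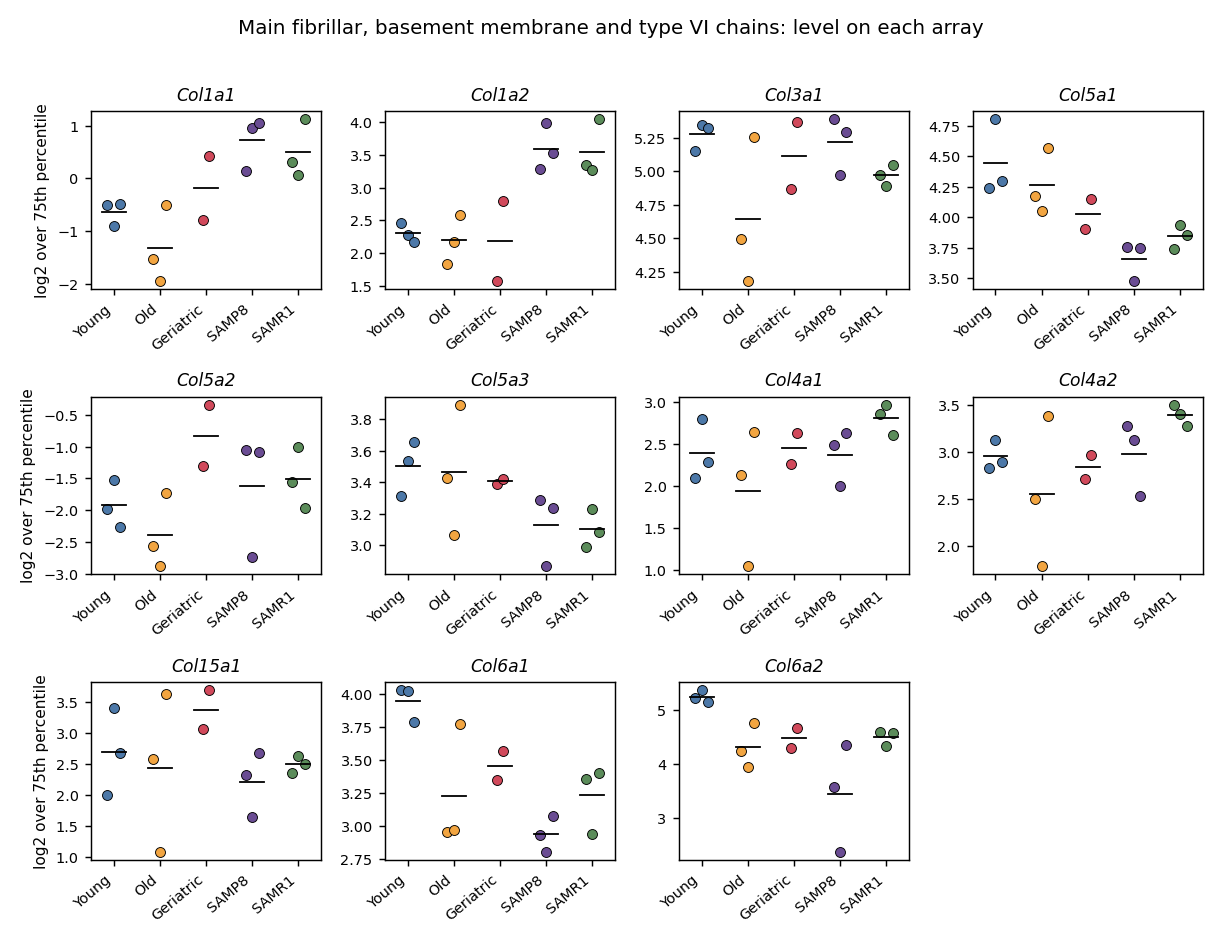
Level (log2 over the array's 75th percentile, vertical axis) of 11 chains fixed by name, with arrays as points and the group mean as a bar. Old arrays spread widely for Col3a1, Col4a1, Col4a2, Col15a1 and Col6a1, with 1 Old array near or above the Young values in each.

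Over the 8 basement membrane genes the median changes were 0.17 in Old versus Young, 0.37 and 0.39 in Geriatric versus Young and versus Old, and -0.12 in SAMP8 versus SAMR1. In Old versus Young 1 of 8 rose (1.2% of all genes) and in Geriatric versus Young 3 of 8 (1.58%), and in Geriatric versus Old 1 rose (5.52%) and 1 fell (14.4%).

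Col4a1 and Col4a2, whose chains form the type IV network of nearly every basement membrane, did not pass. Col4a1 lay at 2.13, 1.04 and 2.65 in Old and at 2.27 and 2.64 in Geriatric, against 2.09, 2.80 and 2.28 in Young. Col4a2 lay at 2.50, 1.79 and 3.38 in Old and at 2.71 and 2.96 in Geriatric, against 2.83, 3.13 and 2.90 in Young. Old 2 was the lowest array for both and Old 3 the highest C57BL/6 array for Col4a2, so for Col4a2 the Old group spanned the other C57BL/6 arrays. For Col4a1 Young 2, at 2.80, lay above Old 3, at 2.65. The Geriatric versus Young changes were 0.06 ± 0.41 for Col4a1 and -0.12 ± 0.384 for Col4a2. In SAMP8 versus SAMR1 they were -0.44 ± 0.367 and -0.41 ± 0.343, with overlapping arrays.

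Col4a5 and Col4a6 encode the alpha 5 and alpha 6 chains, which replace the common type IV chains in some basement membranes. Loss of Col4a5 causes Alport syndrome in humans. Col4a5 lay at -4.28, -5.50 and -4.59 in Old and at -3.57 and -3.45 in Geriatric, against -7.50, -7.72 and -7.62 in Young. No Young array was well above background, 2 of 3 Old and both Geriatric arrays were, and the groups did not overlap.

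Col4a5 rose by 2.82 ± 0.536 in Old versus Young (limma adjusted p = 0.0304) and by 4.10 ± 0.599 in Geriatric versus Young (limma adjusted p = 0.00365). With Young signals below background, fold changes were also set against a detection floor. By the processed signal they were 1.54-fold for Old and 3.75-fold for Geriatric. The floor is, per Young array, the higher of the lowest detected signal and the probe's own. These are point values without an error. They are not lower limits, since changes under other processing, given below, were smaller. Within slide 2 the changes were 3.29 and 4.21 (limma adjusted p = 0.101 and 0.0638). With the authors' deposited values the Old versus Young change of Col4a5 was 0.43 (limma adjusted p = 0.28), and the call was lost without any 1 of Young 1, Young 2, Young 3, Old 1, Old 3 or SAMR1 1 (limma adjusted p up to 0.28 over the alternatives). The Geriatric versus Young change was 0.88 with normexp background correction, and still called (limma adjusted p = 0.0269).

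Col4a6 lay at -0.04, -0.39 and -0.37 in Old and at -0.18 and 0.08 in Geriatric, against -2.52, -2.05 and -2.23 in Young, so all 5 aged arrays stood above all 3 Young arrays. It rose by 2.22 ± 0.555 in Geriatric versus Young (limma adjusted p = 0.0483). The Old versus Young change was 2.00 ± 0.496 and missed the threshold (limma adjusted p = 0.0766). A second Col4a6 probe (A_52_P516409) was well above background on all Old and Geriatric arrays and on no Young array. In the fit of all kept probes, this probe changed by 3.87 in Old and 5.90 in Geriatric over Young (limma adjusted p = 0.00251 and 0.000135). Those changes rest on undetected Young signals. Against the detection floor they were 4.58-fold in Old versus Young and 18.7-fold in Geriatric versus Young, point values without an error or a test.

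With the mean of both probes, which takes in those undetected Young signals, the Old versus Young change of Col4a6 passed (limma adjusted p = 0.00873). The call of the first probe in Geriatric versus Young was lost in 18 of 27 alternatives (limma adjusted p from 0.000983 to 0.265), among them those without any 1 of the Young, Old or Geriatric arrays or without SAMR1 1, SAMR1 3 or SAMP8 1. Its change was 2.00 within slide 2 (limma adjusted p = 0.265) and 1.63 with slide as a fixed block (limma adjusted p = 0.095). Among SAMP8 and SAMR1 arrays both genes spread widely. Col4a5 lay at -4.00, -5.87 and -3.71 in SAMP8, against -5.24, -4.60 and -6.00 in SAMR1, and Col4a6 at -1.51, -2.82 and -0.51 in SAMP8, against -1.61, -0.31 and -1.40 in SAMR1.

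**Figure D4:**
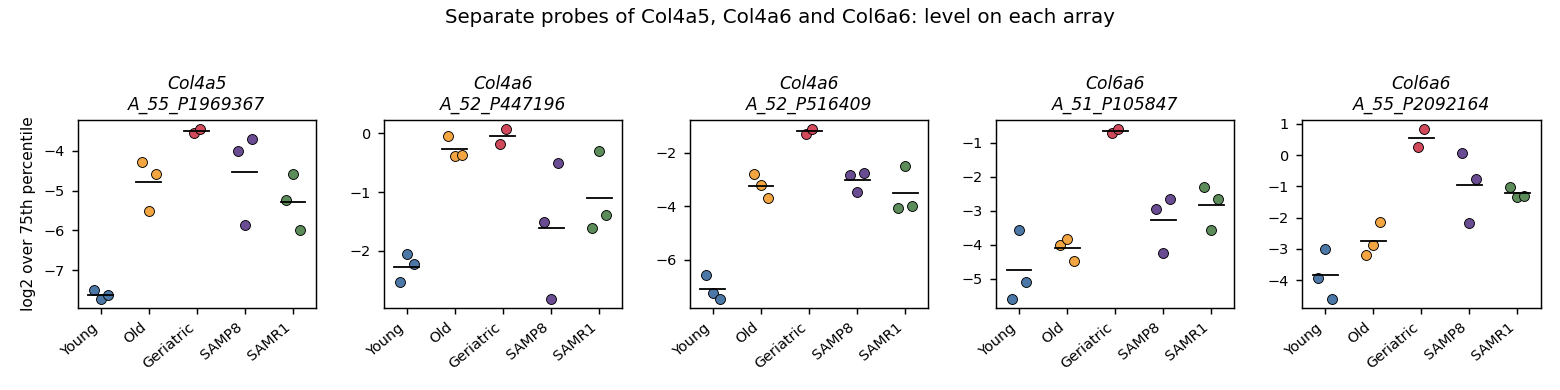
Level (log2 over the array's 75th percentile, vertical axis) of each probe of Col4a5, Col4a6 and Col6a6, with arrays as points and the group mean as a bar. The Young arrays are the lowest 3 for the Col4a5 probe and the second Col4a6 probe, and both Geriatric arrays are the highest for both Col6a6 probes.

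The pair lies head to head on the X chromosome. By RefSeq on GRCm38.p6, Col4a5 starts on the plus strand and Col4a6 on the minus strand, with 1343 bases between the starts. The 250 bases before each start of the X-linked pair are shown because both genes rose in Geriatric versus Young. Capitals mark matches to a CCAAT box (CCAAT) or a GC box (GGGCGG) on either strand:

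Col4a5, chrX:141475169-141475418, plus strand: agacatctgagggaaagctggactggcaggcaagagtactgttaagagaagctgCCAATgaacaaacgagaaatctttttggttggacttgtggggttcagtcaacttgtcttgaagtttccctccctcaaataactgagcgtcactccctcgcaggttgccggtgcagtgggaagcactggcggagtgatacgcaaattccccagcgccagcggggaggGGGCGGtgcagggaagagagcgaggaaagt

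Col4a6, chrX:141474077-141474326, minus strand: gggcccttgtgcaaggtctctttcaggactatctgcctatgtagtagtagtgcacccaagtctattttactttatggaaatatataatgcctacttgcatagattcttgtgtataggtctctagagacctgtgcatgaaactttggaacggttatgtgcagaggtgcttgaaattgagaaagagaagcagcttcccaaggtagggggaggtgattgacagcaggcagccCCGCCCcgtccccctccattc

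The Col4a5 window held 1 CCAAT box, 1 GC box and 10 CpG, and the Col4a6 window 0 CCAAT boxes, 1 GC box and 3 CpG. Neither held TATAAA. Of 32851 windows of all genes 33.8% held CCAAT, 32.7% GGGCGG and 12.4% TATAAA, and of 38 windows of 35 collagen genes, Col6a3 and 34 of the 42, 13, 22 and 5 did. A match is a description of the letters and not a binding site.

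Col18a1 encodes the basement membrane collagen whose end is released as endostatin. It lay at -0.11, -0.14 and 0.90 in Old and at 1.23 and 1.52 in Geriatric, against 0.16, -0.19 and 0.06 in Young. Both Geriatric arrays were above all Young and Old arrays, though Old 3 came near. Col18a1 rose by 1.37 ± 0.297 over Young (limma adjusted p = 0.0266) and by 1.16 ± 0.297 over Old (limma adjusted p = 0.0205).

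Within slide 2 the Col18a1 changes were 1.56 and 0.98 (limma adjusted p = 0.387 and 0.205). Its call against Young was lost with slide as a fixed block, at 1.36 (limma adjusted p = 0.0643), and without Young 2, Young 3, Geriatric 1 or Geriatric 3, and against Old without Old 1, Old 2, Geriatric 1 or Geriatric 3. A second probe changed by 0.91 and 1.03 (limma adjusted p = 0.17 and 0.0583). In SAMP8 it lay at 1.62, 1.43 and 1.42, against 0.96, 0.79 and 1.16 in SAMR1, without overlap, a change of 0.52 ± 0.266 that did not pass (limma adjusted p = 0.666).

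Col15a1, the related collagen that links basement membranes to fibrils, lay at 2.58, 1.09 and 3.63 in Old and at 3.06 and 3.69 in Geriatric, against 2.00, 3.40 and 2.67 in Young. Old 2 and Old 3 bracketed every other C57BL/6 array but Geriatric 3, and the Geriatric versus Young change was 0.69 ± 0.625. The probe of Col15a1 shown above, 1 of its 3, changed by 1.57 in Geriatric versus Old (limma adjusted p = 0.0223 over all kept probes), while the other 2 probes changed by 0.94 and 1.11 and did not pass (limma adjusted p = 0.309 and 0.173).

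Col4a3 encodes the alpha 3 chain of the glomerular and alveolar basement membrane. It lay at -4.03 and -3.69 in Geriatric, against -1.73, -3.34 and -2.01 in Old. It fell by 1.49 ± 0.453 on the log2 scale in Geriatric versus Old (limma adjusted p = 0.0393), and by 1.98 within slide 2 (limma adjusted p = 0.0486). With quantile normalization the Col4a3 change was -1.11 (limma adjusted p = 0.138) and in the authors' deposited values -0.70 (limma adjusted p = 0.141). The call was also lost without any 1 of Young 1, Old 1, Old 3, Geriatric 1, Geriatric 3, SAMR1 1, SAMR1 2 or SAMR1 3 (limma adjusted p up to 0.165). Col4a4, whose chain assembles with it, changed by -0.41 ± 0.423, and its 3 probes ranged from -0.41 to 1.32 in this comparison.

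**Figure D5:**
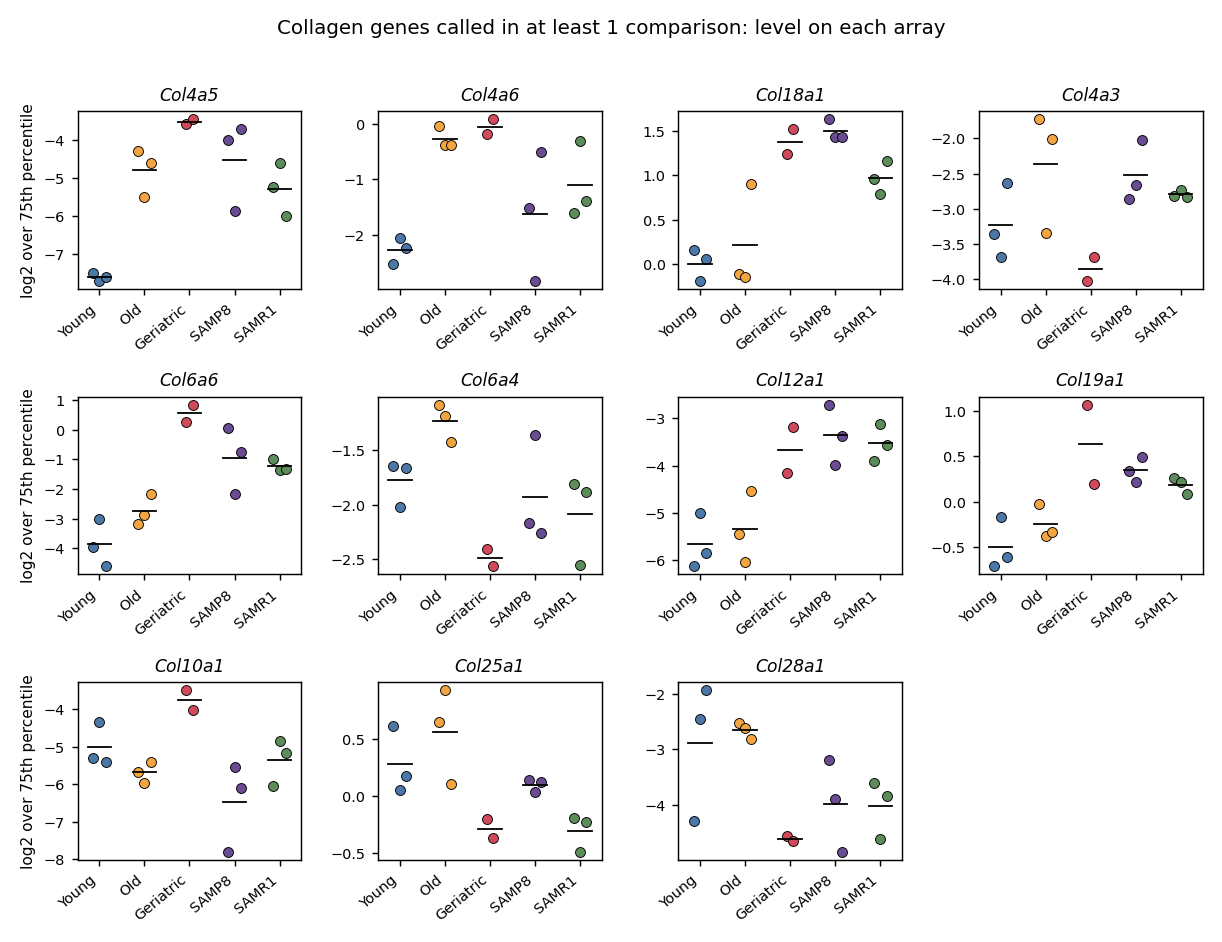
Level (log2 over the array's 75th percentile, vertical axis) of the 11 collagen genes called in at least 1 comparison, with arrays as points and the group mean as a bar. Both Geriatric arrays lie above all Old and Young arrays for Col4a5, Col18a1, Col6a6, Col12a1, Col19a1 and Col10a1, and below all Old arrays for Col4a3, Col6a4, Col25a1 and Col28a1.

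Type VI collagen forms beaded filaments around muscle fibres from a chain of each of Col6a1 and Col6a2 with a further long chain, for which Col6a6 and, in the mouse, Col6a4 encode alternatives. By the probe that represents each gene, Col6a6 had the largest change of any collagen. It lay at -3.20, -2.87 and -2.15 in Old and at 0.26 and 0.84 in Geriatric, against -3.94, -3.00 and -4.61 in Young, with both Geriatric arrays above the other 6. Col6a6 rose by 4.40 ± 0.603 over Young (limma adjusted p = 0.00254) and by 3.29 ± 0.603 over Old (limma adjusted p = 0.0042), and was above background on every array.

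A second Col6a6 probe (A_51_P105847) changed by 4.10 and 3.45 (limma adjusted p = 0.00453 and 0.00407). The Geriatric versus Old call held in all 27 alternatives (limma adjusted p up to 0.0497). The Geriatric versus Young call was lost only within slide 2, at 3.56 with 1 Young array (limma adjusted p = 0.152). In SAMP8 it lay at 0.06, -2.17 and -0.76, against -1.00, -1.35 and -1.32 in SAMR1, a change of 0.27 ± 0.539. The Geriatric versus Young change exceeded the SAMP8 versus SAMR1 change by 4.14 ± 0.809 (limma adjusted p = 0.0274), the only collagen to pass that test of a difference, which 1.73% of all genes passed in either direction. No collagen passed it without any 1 of Young 1, Young 3, Geriatric 1, Geriatric 3 or a SAMR1 array, within slide 2, or with the replicate block.

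Col6a4 went the other way at geriatric age. It lay at -2.41 and -2.57 in Geriatric, against -1.08, -1.18 and -1.42 in Old, and -1.64, -2.02 and -1.66 in Young. It fell by 1.26 ± 0.31 on the log2 scale relative to Old (limma adjusted p = 0.0169), and by 1.24 within slide 2 (limma adjusted p = 0.0582). That call was lost without Old 1, Geriatric 1 or Geriatric 3. Relative to Young its change was -0.71 ± 0.31 (limma adjusted p = 0.21).

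The core chains Col6a1 and Col6a2 were lower in value with age and did not pass with all arrays in the fit. Col6a1 lay at 2.95, 2.97 and 3.77 in Old and at 3.35 and 3.57 in Geriatric, against 4.03, 4.03 and 3.79 in Young. Col6a2 lay at 4.23, 3.94 and 4.76 in Old and at 4.30 and 4.67 in Geriatric, against 5.21, 5.36 and 5.14 in Young. Every Old and Geriatric array was below every Young array for both genes. The Old versus Young changes were -0.72 ± 0.24 for Col6a1 and -0.93 ± 0.403 for Col6a2 (limma adjusted p = 0.159 and 0.27). Among the alternatives that of Col6a1 passed only without Old 3 (limma adjusted p = 0.038). Col6a2 also had the smallest unadjusted p of any collagen in SAMP8 versus SAMR1, at -1.06 ± 0.403 (limma adjusted p = 0.474), lying at 3.58, 2.38 and 4.35 in SAMP8, against 4.59, 4.33 and 4.57 in SAMR1.

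Fibril-associated collagens sit on the surface of fibrils without forming their own. Of 8 kept, 1 rose in Geriatric versus Young (1.58% of all genes) and 2 in Geriatric versus Old (5.52%). Col19a1, a member of this group, lay at -0.03, -0.38 and -0.33 in Old and at 1.07 and 0.20 in Geriatric, against -0.71, -0.17 and -0.62 in Young. Both Geriatric arrays were above the other 6, with Geriatric 1 well above Geriatric 3. In SAMP8 it lay at 0.34, 0.21 and 0.50 and in SAMR1 at 0.26, 0.22 and 0.08, all above every Young and Old array. Col19a1 rose by 1.13 ± 0.27 over Young (limma adjusted p = 0.0404) and by 0.88 ± 0.27 over Old (limma adjusted p = 0.0413). A second probe changed by 1.16 and 0.99 (limma adjusted p = 0.0455 and 0.0322).

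Without Geriatric 1 neither Col19a1 call held, and the lowest changes over the alternatives were 0.70 and 0.44. Each call was lost in 13 of 27 alternatives (limma adjusted p up to 0.693 and 0.315), among them those without any 1 of Young 3, Old 2, SAMR1 1, SAMR1 2, SAMR1 3 or SAMP8 1. Within slide 2 the changes were 0.80 and 0.81 (limma adjusted p = 0.693 and 0.239). With slide as a fixed block the change of Col19a1 over Young was 0.98 (limma adjusted p = 0.095).

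Col12a1, whose mutation causes a myopathy in humans, lay at -5.45, -6.04 and -4.53 in Old and at -4.15 and -3.17 in Geriatric, against -6.13, -5.00 and -5.84 in Young. It was above background on 2 of 3 Old, both Geriatric and 1 of 3 Young arrays. It rose by 1.68 ± 0.523 over Old (limma adjusted p = 0.0435), and its change of 2.00 ± 0.523 over Young missed the threshold (limma adjusted p = 0.0575). The change over Old was 1.33 within slide 2 (limma adjusted p = 0.19), 0.30 with normexp background correction (limma adjusted p = 0.359) and 0.77 in the authors' deposited values (limma adjusted p = 0.0502). That call of Col12a1 was lost without any 1 of Young 3, Old 1, Old 2, Geriatric 1, Geriatric 3, SAMP8 3 or a SAMR1 array. All SAMP8 and SAMR1 arrays, at -3.99 to -2.71 and -3.90 to -3.13, lay above all Young and Old arrays.

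Col16a1 came closest to a fall in Old cells. It lay at -0.91, -0.07 and 0.14 in Old and at -0.14 and 0.10 in Geriatric, against 1.02, 1.14 and 0.60 in Young, so all aged arrays stood below all Young arrays. Its Old versus Young change was -1.20 ± 0.297 (limma adjusted p = 0.0759), and the 2 other kept probes changed by -0.94 and -0.32. In SAMP8 it lay at 0.53, 0.05 and -0.07, against 0.66, 0.77 and 1.23 in SAMR1, a change of -0.72 ± 0.297 (limma adjusted p = 0.532). Among the rest of this group Col14a1 stood out for 1 array, at -1.68 on Geriatric 1 and between -5.18 and -3.69 on the other 13.

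In Geriatric versus Old, 1 of 3 network genes rose and 1 of 4 transmembrane genes fell, beside 5.52% and 14.4% of all genes. Col10a1, the collagen of hypertrophic cartilage, lay at -3.49 and -4.02 in Geriatric, against -5.66, -5.96 and -5.40 in Old, of which no array was above background. Col10a1 rose by 1.92 ± 0.594 over Old (limma adjusted p = 0.0427), or 3.19-fold against the detection floor of the Old arrays. It was above background on 1 of 3 Young, 0 of 3 SAMP8 and 2 of 3 SAMR1 arrays, and over Young its change was 1.26 ± 0.594 (limma adjusted p = 0.242). The change over Old was 1.77 within slide 2 (limma adjusted p = 0.154) and 1.85 with slide as a fixed block (limma adjusted p = 0.0625), and the call was lost without any 1 of Young 1, Young 3, the Old arrays, the Geriatric arrays or SAMR1 3. With normexp background correction the Col10a1 change was 0.38 (limma adjusted p = 0.161) and in the authors' deposited values 0.83 (limma adjusted p = 0.00853).

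Col25a1, a membrane collagen that in the mouse is needed in muscle for its innervation by motor axons, lay at -0.20 and -0.37 in Geriatric, against 0.65, 0.93 and 0.11 in Old. In Young it lay at 0.61, 0.05 and 0.17, in SAMP8 at 0.15, 0.03 and 0.12 and in SAMR1 at -0.19, -0.48 and -0.23. It fell by 0.85 ± 0.258 on the log2 scale in Geriatric versus Old (limma adjusted p = 0.04), and by 0.66 within slide 2 (limma adjusted p = 0.221). The probe of Col25a1 shown above changed by -0.86 and did not pass (limma adjusted p = 0.334 over all kept probes). The Col25a1 call was lost without any 1 of Young 3, Old 1, Old 2, Geriatric 1, Geriatric 3, SAMR1 1, SAMR1 3 or SAMP8 1 (limma adjusted p up to 0.221).

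Col28a1, which in the mouse is found mainly in peripheral nerve, lay at -4.56 and -4.66 in Geriatric, against -2.53, -2.63 and -2.82 in Old, and at -4.29, -2.45 and -1.94 in Young. It fell by 1.95 ± 0.627 on the log2 scale in Geriatric versus Old (limma adjusted p = 0.0486), and by 1.94 within slide 2 (limma adjusted p = 0.118) and 1.92 with slide as a fixed block (limma adjusted p = 0.0686). That call was lost in 17 of 27 alternatives (limma adjusted p from 0.0125 to 0.196), among them quantile normalization, the authors' deposited values at -0.70 (limma adjusted p = 0.132), and those without any 1 of Young 2, the Old, Geriatric or SAMR1 arrays, or SAMP8 2. Among the Schwann cell markers the mean level ranged from -3.60 to -2.15 on Geriatric arrays, against -2.21 to -1.41 on Old arrays, and its part in this fall was not tested.

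The other members of these types did not pass in any comparison. They are Col7a1 of anchoring fibrils, Col8a1 and Col8a2, the 3 type IX chains, Col13a1, Col14a1, Col16a1, Col17a1, Col20a1 and Col23a1. In SAMP8 versus SAMR1 the 21 genes of other types ranged from -1.13 (Col10a1) to 0.83 (Col13a1), with a median of 0.04, and 4 had an unadjusted p under 0.05, all lower in SAMP8. They were Col6a2, Col20a1, Col16a1 and Col8a1. At that unadjusted threshold 1324 of all 32871 genes were lower in SAMP8 and 1414 higher. At an adjusted p under 0.05 limma called 148 genes in that comparison.

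Of 12 collagen genes with several kept probes, probes of a gene took opposite signs for 3 in Old versus Young and for 4 in each of the other comparisons. A Col23a1 probe that does not represent the gene changed by 1.33 in Old versus Young (limma adjusted p = 0.0356 over all kept probes), against -0.11 for the one that does. Young 2 was the highest Young array for 20 of the 38 collagen genes, and for 34% of all genes. Old 3 was the highest Old array for 19 of them, and for 32.7% of all genes, and its satellite cell marker mean of 2.64 stood above 2.22 on Old 1 and 2.21 on Old 2.

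Genes of collagen synthesis were listed apart. Of 21 genes for modification and folding, only Fkbp14 passed, a peptidyl-prolyl isomerase of the endoplasmic reticulum that acts on procollagen. It was called in Geriatric versus Young and versus Old, where 1.58% and 5.52% of all genes rose. Fkbp14 lay at -2.13, -3.03 and -2.28 in Old and at -1.24 and -0.88 in Geriatric, against -2.71, -2.31 and -2.56 in Young. It rose by 1.46 ± 0.329 over Young (limma adjusted p = 0.0317) and by 1.42 ± 0.329 over Old (limma adjusted p = 0.0131). The list's medians were -0.28 in Old versus Young, -0.23 and 0.17 in Geriatric versus Young and versus Old, and -0.20 in SAMP8 versus SAMR1.

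Serpinh1, the collagen chaperone Hsp47, lay at 1.26, 1.46 and 2.55 in Old and at 1.84 and 2.13 in Geriatric, against 2.83, 2.74 and 2.45 in Young. Its changes were -0.92 ± 0.375 and -0.69 ± 0.419 (limma adjusted p = 0.244 and 0.351). P4ha1, a prolyl hydroxylase subunit, changed by -1.03 ± 0.441 in Old versus Young and -1.56 ± 0.493 in Geriatric versus Young (limma adjusted p = 0.261 and 0.105). Plod2, a lysyl hydroxylase, changed by -1.22 ± 0.338 and -0.82 ± 0.378 (limma adjusted p = 0.104 and 0.231). All Old and Geriatric arrays lay below all Young arrays for P4ha1 and Plod2, and none of these changes passed.

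Of 11 kept genes for processing and cross-linking, 0 passed in any comparison. In Geriatric versus Old, the comparison with the most calls, 5.52% of all genes rose and 14.4% fell. Lox, the cross-linking lysyl oxidase, lay at -1.84, 0.02 and -1.75 in Old and at -1.69 and -1.44 in Geriatric, against -3.75, -3.34 and -2.87 in Young, so every aged array was above every Young array. Its changes were 2.13 ± 0.636 and 1.76 ± 0.711 and missed the threshold (limma adjusted p = 0.125 and 0.182).

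Of 12 receptors and uptake genes, 1 fell in Geriatric versus Old, where 14.4% of all genes fell. This was Lair1, an inhibitory collagen receptor of leukocytes. Lair1 lay at -4.43 and -4.69 in Geriatric, against -1.55, -2.81 and -2.00 in Old, a fall by 2.44 ± 0.384 on the log2 scale (limma adjusted p = 0.00191). The mean level of the leukocyte markers, 8 of 8 kept, was also lower, at -1.83 to -1.65 in Geriatric, against -1.39 to -0.06 in Old. Their part in the fall was not tested. The discoidin receptors Ddr1 and Ddr2 changed by 0.08 ± 0.312 and 0.52 ± 0.329 in Geriatric versus Young (limma adjusted p = 0.901 and 0.367).

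Of the 13 kept genes of the fibroblast list, which holds other matrix genes, 2 rose and 1 fell in Geriatric versus Young and 3 rose and 1 fell in Geriatric versus Old, beside 1.58%, 2.61%, 5.52% and 14.4% of all genes. Dpt (dermatopontin, a collagen-binding matrix protein) rose by 1.48 over Young and 1.05 over Old (limma adjusted p = 0.0205 and 0.0325). Tnxb (tenascin X) rose by 1.01 and 1.03 (limma adjusted p = 0.0466 and 0.0163), Fbn1 (fibrillin 1) rose by 1.06 over Old (limma adjusted p = 0.0375), and Thy1 fell by 3.04 and 2.26 on the log2 scale (limma adjusted p = 0.011 and 0.0157). Of 10 kept muscle fibre markers 2 fell in Geriatric versus Old (Myh2 and Mylpf), and the mean level of the list was -2.92 to -2.61 in Geriatric, against -1.82 to -1.48 in Old. The part of these markers in the geriatric collagen changes was not tested.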

How the data were processed

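The scanner files hold, per the file headers, linear intensities: a processed signal a spot from Agilent Feature Extraction 10.7.3.1, with mm9 probe coordinates. The authors' deposited value table holds log2 values. How they were made is not given in the sources used, and they equalled a normexp correction (offset 50) and quantile normalization within 0.000117, with a median of 7.8 on every array and no centring of genes.

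From the scanner files, control and outlier spots were dropped, spots of a probe averaged, and log2 of the processed signal reduced by each array's 75th percentile. Each gene took the values of the kept probe that was brightest on average. The test was that of limma (version 3.58.1, R 4.3.3; lmFit, then eBayes) with 1 coefficient a group over 14 arrays and 2.36 prior degrees of freedom. In the fit 524 values were missing as outliers, and 0 of them were collagen values. Slides were read from barcodes in the headers, and no label gives them. Upstream sequences came from RefSeq (GRCm38.p6). Annotation of mm9 was not used here, so exons and UTRs of probes are not stated. The test was checked on simulated data.

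Values of every array are plotted for members that passed in any comparison and for chains fixed by name (type I, III and V, Col4a1, Col4a2, Col15a1, Col18a1, Col6a1 and Col6a2). The text gives their values for some or all groups, and otherwise values for up to 2 members per class and comparison with the smallest p. Col8a1 and Col14a1, the second probes and the values of single Old and Young arrays were chosen after their values were seen. Members and lists were chosen with earlier results of these data known. The alternatives were another normalization, background correction, percentile, filter and probe rule, the authors' values, slide as a block and within slides, the replicate block, only the groups compared, and each array left out.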

Additional observations from a re-analysis of the deposited data

Results flagged for a closer look

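Col6a6 was the collagen whose change differed between the geriatric and the strain comparison by a test of the difference itself. Its Geriatric versus Young change exceeded its SAMP8 versus SAMR1 change by 4.14 on the log2 scale (limma adjusted p = 0.0274). No collagen passed that test without any 1 of Young 1, Young 3, Geriatric 1, Geriatric 3, SAMR1 1, SAMR1 2 or SAMR1 3, within slide 2, or with the replicate block. Both Geriatric arrays stood above all Young arrays, while SAMP8 and SAMR1 arrays overlapped. The difference between Geriatric and Young arrays cannot be told apart from the sex-linked transcripts that divide them. No group of the series is large enough here for a search for single outlying arrays.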

How the results depend on the processing

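No collagen call turned its direction under any alternative. The Old versus Young count of 1 became 0 with quantile normalization, within slide 1, within slide 2 and with the replicate block, 2 with normexp background correction and with the mean of a gene's probes, and 3 with every probe as a feature, and ranged from 0 to 2 with single arrays left out. The Geriatric versus Young count of 5 became 2 with slide as a fixed block and with the replicate block, 3 with slide as a random block and with only the groups compared, and 0 within slide 2, and ranged from 2 to 5 with arrays left out. The Geriatric versus Old count of 9 became 2 within slide 2, 5 with the replicate block and 4 with only the groups compared, and ranged from 1, without Old 1 or Geriatric 1, to 9. The SAMP8 versus SAMR1 count was 0 in every alternative and from 0 to 0 with arrays left out. The count for the difference of changes was 1, and became 2 with the mean of probes and with slide as a fixed or random block, 3 with every probe, and 0 within slide 2 and with the replicate block, and ranged from 0 to 3 with arrays left out. Within slide 1 limma called 0 of all genes, and within slide 2 it called 0 in Old versus Young and 7 in Geriatric versus Young, which have fewer arrays there.

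Replicate numbers did not pair the samples. Deviations of same-numbered arrays correlated with r from -0.255 to -0.213 in Old versus Young, -0.13 to -0.064 in Geriatric versus Young, 0.114 to 0.156 in Geriatric versus Old and -0.166 to 0.0329 in SAMP8 versus SAMR1, and the labels name no shared litter or batch. Dim probes set a further limit: the Geriatric versus Young rise of Col4a5 was 0.88 with normexp background correction, against 4.10 with the processed signal, and the cause was not tested. Median changes over the 38 genes moved by less than the spread between arrays in every alternative.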
